A study of Mus musculus with 6 samples.

Results

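Collagen chain genes were taken from the expression tables of mouse dorsal root ganglia (DRG) by symbol, as every row named Col, a type number, the letter a and a chain number. Of 48401 listed genes 44 met this rule. Read counts were tested for the 33 of them with a mean of at least 1 TPM (a transcript level scaled to gene length and to the library's total) over the 6 libraries, and the other 11 had means of 0.0654 to 0.972 TPM. The libraries came from total RNA of L4/5 ganglia, which hold the cell bodies of sensory neurons with their glia, vessels and connective tissue, of male C57BL/6J mice 8 weeks of age. The mice had been injected intrathecally, into the fluid around the spinal cord, with siNC, taken here as the control siRNA, or with siCLAP, an siRNA against the long intergenic noncoding RNA CLAP. Each group held 3 libraries. The labels do not say whether these came from separate mice or from pools, so each p-value reflects library-to-library spread alone, which may be technical. CLAP has no row under that name and its level was not analysed here.

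Collagens are extracellular proteins built from 3 chains that wind into a triple helix. Fibrillar collagens form the tensile fibrils of connective tissue, type IV collagens form the sheet of basement membranes, type VI collagens form beaded filaments that link cells to the matrix, and fibril-associated collagens coat fibril surfaces. In ganglia and nerves these proteins make up the connective tissue sheaths and the basement membranes that surround Schwann cells and vessels.

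Total counts ranged from 21386768 to 46317735 per library. All 10 sensory neuron markers were present, among them Prph, an intermediate filament of peripheral neurons, at 2544 to 2849.8 TPM. Their estimates for siCLAP against siNC were positive for 6 and negative for 4. Of the 10, 1 passed, Scn10a, as lower in siCLAP (log2 fold change −0.35, edgeR adjusted p = 0.0363). Of 9 cartilage and bone markers, Matn1 was listed at 0 in every library and Acan, the main proteoglycan of cartilage, stood at 0.406 to 0.613 TPM. Others were present, with Comp, a matrix protein of cartilage and tendon, at 14.4 to 25.7 TPM, Ibsp, a bone matrix protein, at 5.76 to 9.17 TPM and Runx2, a bone transcription factor, at 2.80 to 3.56 TPM. All 4 tested members of this list had positive estimates and 0 passed, the smallest edgeR adjusted p being 0.0951 for Ibsp, which was higher in siCLAP without overlap. Their part in the collagen values was not tested. Leptomeningeal genes, markers of the pia and arachnoid that cover spinal cord and roots, stood apart by library. Their summed level over 9 genes was 111, 27.7 and 119 TPM in the siNC libraries and 22.7, 14.6 and 10.5 TPM in the siCLAP libraries (libraries 1, 2 and 3 in order, here and below). This sum was lowest in the siCLAP libraries, and siNC-2 lay nearer to them than to siNC-1 and siNC-3. Most of it in the siNC libraries was Ptgds, at 90.3, 19.3 and 91.7 TPM, beside 13.5, 6.67 and 3.63 TPM in the siCLAP libraries. Of 6 tested genes of this list 4 were lower in siCLAP without overlap, while Slc13a4 and Crabp2 overlapped. In these bulk samples, fewer cells of a type and less RNA per cell cannot be told apart.

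Sequences upstream of 4 collagen genes are shown, since these genes represent the patterns described below: Col5a3 was the most abundant and among the steadiest members, Col3a1 varied most between control libraries among the 33 tested genes, and Col6a2 and Col6a3 encode chains of the type VI filament, whose tested genes all had lower estimates in siCLAP. Each run is the 250 bases before a RefSeq start on GRCm38.p6, and none overlaps an exon of GENCODE M21. Capitals mark matches on either strand to 3 motifs, the CCAAT box, the TATA box motif TATAAA and the GC box core GGGCGG.
Col5a3 (chr9:20815068-20815317, minus strand): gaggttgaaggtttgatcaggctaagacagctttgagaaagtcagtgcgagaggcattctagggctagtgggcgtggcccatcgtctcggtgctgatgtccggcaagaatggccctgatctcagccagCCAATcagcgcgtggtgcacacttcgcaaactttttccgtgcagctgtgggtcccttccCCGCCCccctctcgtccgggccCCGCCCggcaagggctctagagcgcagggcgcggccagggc
Col3a1 (chr1:45311288-45311537, plus strand): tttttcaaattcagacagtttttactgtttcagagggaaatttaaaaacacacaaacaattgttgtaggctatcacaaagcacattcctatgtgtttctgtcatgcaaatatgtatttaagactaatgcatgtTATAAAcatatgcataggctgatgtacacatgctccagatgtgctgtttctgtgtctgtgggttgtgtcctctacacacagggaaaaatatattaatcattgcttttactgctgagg
Col6a2 (chr10:76623631-76623880, minus strand): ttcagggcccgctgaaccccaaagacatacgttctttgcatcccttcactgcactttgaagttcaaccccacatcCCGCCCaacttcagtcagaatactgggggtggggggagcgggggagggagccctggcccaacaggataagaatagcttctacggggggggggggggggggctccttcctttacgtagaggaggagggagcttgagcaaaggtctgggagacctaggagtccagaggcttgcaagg
Col6a3 (chr1:90843972-90844221, minus strand): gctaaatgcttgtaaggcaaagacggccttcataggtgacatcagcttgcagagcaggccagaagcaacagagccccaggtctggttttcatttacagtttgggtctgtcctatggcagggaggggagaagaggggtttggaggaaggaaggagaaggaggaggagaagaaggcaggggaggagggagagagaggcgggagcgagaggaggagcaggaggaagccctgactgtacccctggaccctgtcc
The Col5a3 window held 1 CCAAT match 122 bases before the start, on the strand shown, and 2 matches to GGGCGG at 63 and 41 bases, on the opposite strand. Col3a1 held 1 TATAAA match 117 bases before the start, Col6a2 1 GGGCGG match at 175 bases on the opposite strand, and Col6a3 none of these letters. RefSeq windows were found for 35 of the 44 genes, 38 windows in all. CCAAT was in 34.2% of them and in 33.8% of 32851 windows of all genes, TATAAA in 13.2% and 12.4%, and GGGCGG in 57.9% and 32.7%. RefSeq gives Col6a2 another start, whose window overlaps exons by 226 bases, is not shown and held 3 GGGCGG matches at 67, 15 and 11 bases. These matches describe the letters in a window and show no binding.

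Several collagen genes lie beside each other in the genome. Col4a1 (chr8:11198423-11312826) and Col4a2 (chr8:11312805-11449287) point away from each other and share their first 22 bases. Col4a4 and Col4a3 on chromosome 1 also point apart, with 71 bases between them, and Col4a6 and Col4a5 on chromosome X have 1308. The stretch between Col4a4 and Col4a3 lies upstream of both starts and is shown on the Col4a4 strand. It held 0 matches to the 3 motifs, and its GC content was 69.0%.
Col4a4 to Col4a3 (chr1:82586850-82586920, minus strand): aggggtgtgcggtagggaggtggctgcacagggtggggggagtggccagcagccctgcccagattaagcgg
The other neighbours were Col3a1 and Col5a2 on chromosome 1, Col9a1 and Col19a1 on chromosome 1, Col6a1 and Col6a2 on chromosome 10, and Col6a4, Col6a5 and Col6a6 in a row on chromosome 9. Of the 33 tested genes 9 share exon bases with another gene, at most 6.07% (Col9a3 with Tcfl5). The library kit does not mark strand, so reads from shared bases cannot be assigned.

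Collagen transcripts summed to 628, 471 and 657 TPM in the siNC libraries and 556, 574 and 519 TPM in the siCLAP libraries. The siNC range enclosed all 3 siCLAP values. Fibrillar chains made up 49.4% of the mean sum, type IV chains 12.5%, fibril-associated chains 12.2% and type VI chains 4.02%. Levels spanned a wide range, and 15 genes had a mean of at least 10 TPM. The order by mean began with Col5a3 at 76.3 TPM, Col1a2 at 68.9, Col28a1 at 60.2, Col16a1 at 46.9 and Col4a1 at 39.0 TPM, and the first 3 held 36.2% of collagen TPM. Over the 6 libraries, 41 of 43 neighbouring pairs in this order had overlapping ranges. The exceptions were Col24a1 above Col11a1, and Col9a3 above Col4a5.

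**Figure D1:**
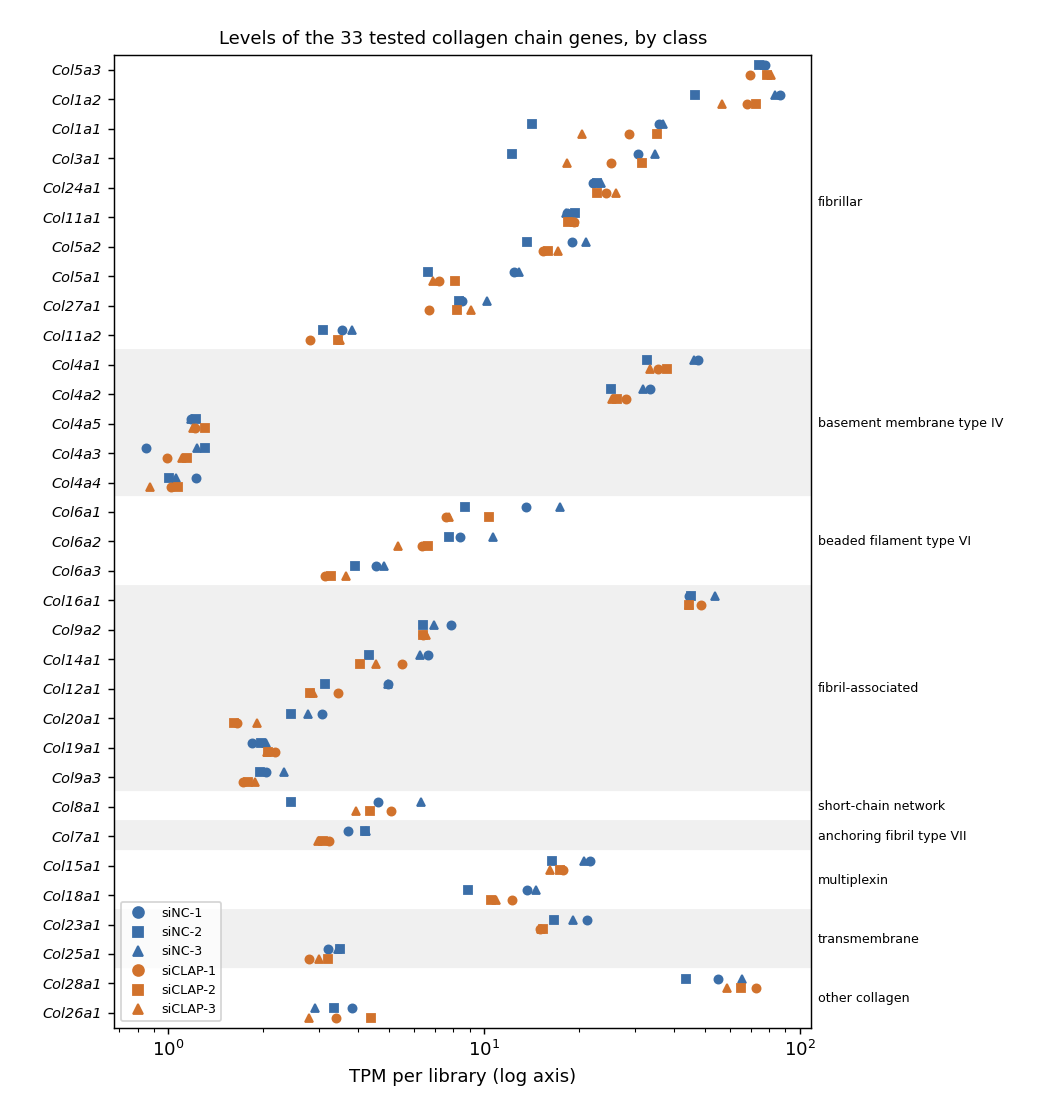
TPM of the 33 tested collagen chain genes in each library on a log axis, grouped by class, with siNC in blue, siCLAP in orange and the symbol giving the replicate number. Col5a3 and Col11a1 points lie close together, while Col1a1 runs from 14.2 TPM in siNC-2 to 37.0 TPM in siNC-3.

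The comparison of siCLAP with siNC asked whether knockdown of CLAP goes with a different level of collagen transcripts in the ganglion. In edgeR's quasi-likelihood test over all genes, 0 of 33 collagen genes rose and 0 fell at an adjusted p under 0.05. This threshold called 0.293% of all 19141 tested genes, so 0 of 33 does not set collagens apart. Limma voom also called 0 collagens, with 0.313% of all genes called, and limma on log2(TPM + 0.5) called 0 genes in all. At an unadjusted p under 0.05 the count was 9 of 33, beside 17.0% of all genes. Of these 9, 8 were lower and 1 higher in siCLAP, where 8.75% of all genes were lower and 8.22% higher. At an adjusted p under 0.1 the count was 5 (Col20a1, Col7a1, Col6a2, Col6a3 and Col23a1), all lower, beside 2.80% of all genes in either direction and 1.70% lower. Of the 33 estimates 25 were negative, against 50.5% of all genes. The median log2 fold change was −0.12 over the collagens and −0.0018 over all genes.

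Calls depended on the tool and on single libraries. DESeq2 called 6 of the 30 collagens to which it gave an adjusted p, each of them lower (Col6a2, Col23a1, Col6a3, Col12a1, Col20a1 and Col7a1), beside 4.38% of its 13942 genes called in either direction and 2.68% lower. Without a minimum TPM, edgeR called 10 of all 44, with 9 lower and 1 higher, against 2.75% of 30347 genes and 1.82% lower. Without siNC-2 it called 5, all lower (Col5a1, Col12a1, Col4a1, Col23a1 and Col6a1), against 0.820% of all genes and 0.564% lower, and the median moved to −0.27. Without siCLAP-3 it called 1, Col20a1, against 1.78% of all genes and 1.18% lower. Leaving out any of the other 4 libraries called 0. The siNC-2 library was the lowest control for 23 of 33 collagens, so leaving it out raises the control level of those genes. Calls made without it, here and below, are therefore no separate test of a fall. On normalised counts, the groups did not overlap for 6 collagens that were lower in siCLAP (Col6a2, Col6a3, Col7a1, Col20a1, Col23a1 and Col9a3) and 1 that was higher (Col19a1), beside 10.7% and 10.9% of all genes.

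**Figure D2:**
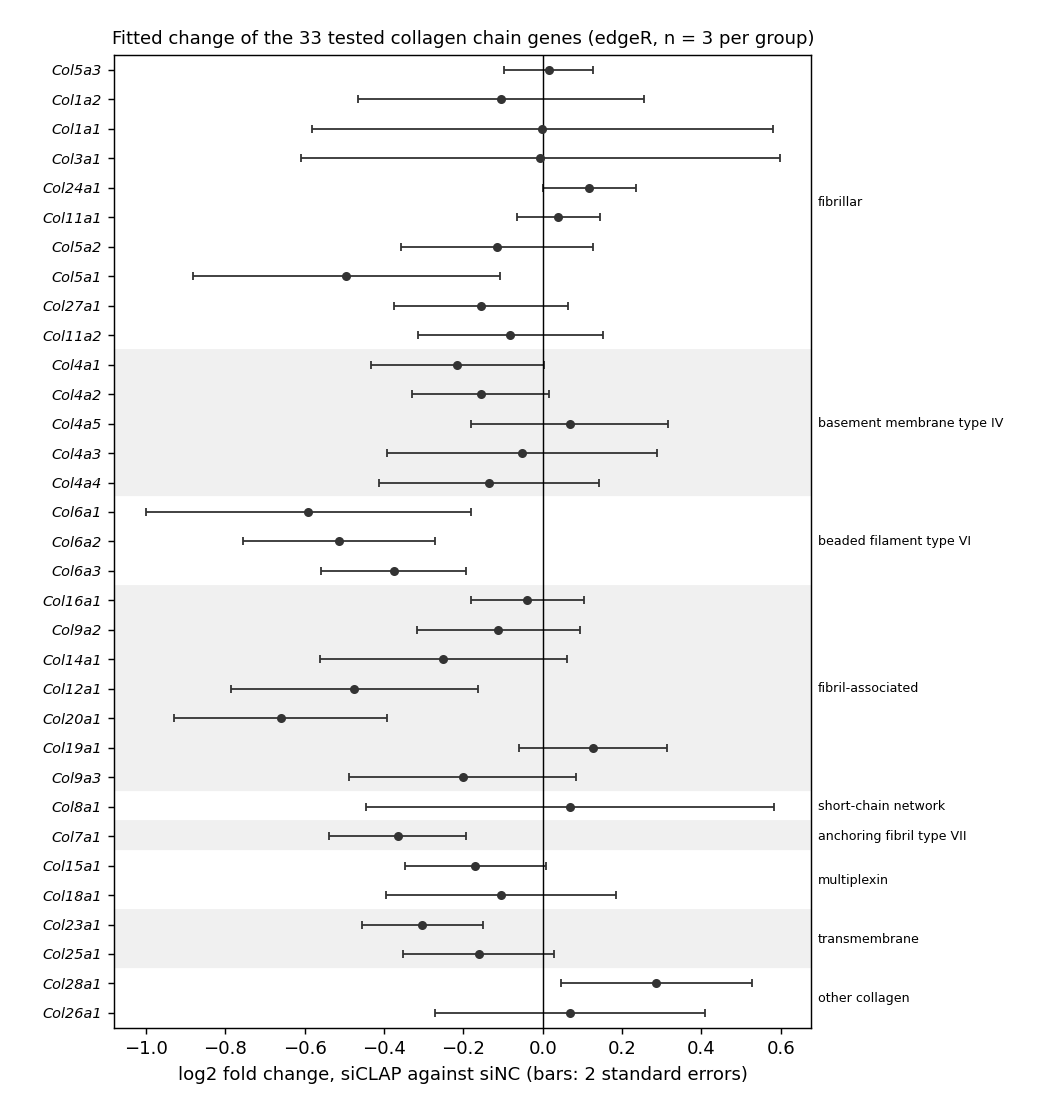
Log2 fold change of siCLAP against siNC for the 33 tested collagen chain genes from edgeR's fit, with bars of 2 standard errors and genes grouped by class. Intervals of 8 genes lie below 0 and those of Col28a1 and Col24a1 above it, the latter barely, and the widest belong to Col1a1 and Col3a1.

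The major fibrillar collagens of connective tissue varied more within groups than between them. Col1a1 and Col1a2 encode the chains of type I collagen, the main component of fibrils, and Col3a1 the chain of type III collagen, which mixes with type I in soft tissue. Col1a1 (chr11:94936224-94953042) stood at 35.7, 14.2 and 37.0 TPM in the siNC libraries and 28.9, 35.2 and 20.4 TPM in the siCLAP libraries. The lowest value, in siNC-2, and the highest, in siNC-3, belonged to the same group, so the siCLAP values lay inside the control range. Its estimate was −0.0015 ± 0.29 (log2 fold change ± SE, edgeR adjusted p = 0.999), with a 2-SE interval of −0.58 to 0.58 that leaves room for shifts either way. Col3a1, chosen after its values were seen, had the same order of libraries within each group, at 30.8, 12.3 and 34.7 TPM in the siNC libraries and 25.1, 31.7 and 18.3 TPM in the siCLAP libraries (−0.0068 ± 0.30, edgeR adjusted p = 0.995). The estimates were −0.34 for Col1a1 and −0.36 for Col3a1 without siNC-2, and 0.20 and 0.25 without siNC-3. The ratio of Col1a1 to Col3a1 TPM stayed between 1.07 and 1.16 in all 6 libraries. Col3a1 shares 141 exon bases with a predicted miRNA gene annotated within it.

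Col1a2 (chr6:4504814-4541544) was the most abundant of these genes, at 86.2, 46.6 and 83.4 TPM in the siNC libraries and 67.8, 72.8 and 56.7 TPM in the siCLAP libraries. Groups overlapped, with siNC-2 lowest again (−0.11 ± 0.18, edgeR adjusted p = 0.802). Per length, Col1a2 was above Col1a1 in every library, with ratios of 2.41, 3.28 and 2.26 in the siNC libraries and 2.35, 2.07 and 2.78 in the siCLAP libraries. Type I collagen molecules are known to hold more Col1a1 than Col1a2 chains. Within each group the ratio was highest in the library with the lowest Col1a1, its denominator, namely siNC-2 and siCLAP-3. Fibroblast markers ordered the libraries within each group in nearly the same way, with a summed level of 419.6, 307 and 415 TPM in the siNC libraries and 391, 491 and 308 TPM in the siCLAP libraries over 8 genes, most of it Dcn, the fibril-binding proteoglycan decorin. Single markers differed from this sum, since Mfap5, Clec3b and Pi16 were lower in siCLAP without overlap and Lum was higher without overlap. Their part in the spread of type I and III collagen was not tested.

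Type V and XI chains, which nucleate fibrils and set their width, split into steady and variable genes. Col5a3 (chr9:20770050-20815067), a type V chain known from peripheral nerve, stood at 77.7, 74.3 and 77.0 TPM in the siNC libraries and 69.3, 78.6 and 81.0 TPM in the siCLAP libraries. Its means were 76.3 ± 1.81 TPM and 76.3 ± 6.18 TPM (SD, n = 3 each), and the 2-SE interval of its log2 fold change ran from −0.10 to 0.13, among the narrowest of the collagens. Col5a1, the chain shared by most type V molecules, overlaps exons of 2 noncoding genes on the other strand and was at 12.5, 6.64 and 12.9 TPM in the siNC libraries and 7.20, 8.10 and 6.87 TPM in the siCLAP libraries. Control libraries 1 and 3 lay above all siCLAP libraries, but siNC-2 lay below them (−0.50 ± 0.19, edgeR adjusted p = 0.232). Without siNC-2 it fell by 0.76 on the log2 scale (edgeR adjusted p = 0.00720). With 1 library left out, the Col5a1 estimate ran from −0.76 to −0.34. Col5a2 had group means of 17.9 ± 3.80 TPM and 16.2 ± 0.933 TPM. The ratio of Col5a3 to Col5a1 TPM was 6.23, 11.2 and 5.95 in the siNC libraries and 9.62, 9.70 and 11.8 in the siCLAP libraries, so Col5a3 exceeded Col5a1 in every library.

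Col11a1, a type XI chain, was as steady as Col5a3, with 18.6 ± 0.631 TPM and 19.0 ± 0.467 TPM, and its partner Col11a2 was lower, at 3.48 ± 0.360 TPM and 3.25 ± 0.387 TPM. Col24a1, a minor fibrillar collagen, stood at 22.1, 22.9 and 23.4 TPM in the siNC libraries and 24.3, 22.8 and 26.2 TPM in the siCLAP libraries, with overlapping groups (0.12 ± 0.06, edgeR adjusted p = 0.337). Col27a1, another minor fibrillar collagen, had means of 9.04 ± 1.05 TPM and 8.00 ± 1.23 TPM. Fibrillar genes as a class had a median log2 fold change of −0.04 over 10 tested members, with 7 estimates negative and 3 positive. Col2a1, the main collagen of cartilage, was under the minimum at 0.620 to 1.05 TPM.

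In the type VI class all 3 tested chains had an unadjusted p under 0.05 with lower estimates in siCLAP, where 8.75% of all genes did, and none passed after adjustment. Col6a1, Col6a2 and Col6a3 encode the chains that assemble into the common form of type VI collagen. Col6a2 (chr10:76595762-76623630) was at 8.39, 7.74 and 10.7 TPM in the siNC libraries and 6.37, 6.65 and 5.35 TPM in the siCLAP libraries, and its groups did not overlap (−0.51 ± 0.12, edgeR adjusted p = 0.0856). Col6a3 (chr1:90765923-90843971) was at 4.56, 3.89 and 4.81 TPM in the siNC libraries and 3.14, 3.27 and 3.65 TPM in the siCLAP libraries, also without overlap (−0.38 ± 0.09, edgeR adjusted p = 0.0905). Col6a1 was at 13.6, 8.71 and 17.3 TPM in the siNC libraries and 7.57, 10.4 and 7.73 TPM in the siCLAP libraries. Here siCLAP-2 lay above siNC-2, so the groups overlapped (−0.59 ± 0.20, edgeR adjusted p = 0.186), and without siNC-2 it fell by 0.83 on the log2 scale (edgeR adjusted p = 0.0352). The Col6a1 estimate ran from −0.83 to −0.37 with 1 library left out. DESeq2 called Col6a2 (DESeq2 adjusted p = 0.00491) and Col6a3 (DESeq2 adjusted p = 0.0222).

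Summed over the 6 type VI genes, TPM was 27.0, 20.9 and 33.6 TPM in the siNC libraries and 17.4, 20.7 and 17.1 TPM in the siCLAP libraries. The lowest control library and the highest siCLAP library nearly touched. The class median was −0.51. Leptomeningeal markers also had lower estimates in siCLAP, with 6 of 6 tested negative, 0 passing and a median of −1.45. Markers of the perineurium, the sheath around nerve bundles, had 7 of 7 estimates negative, 0 passing and a summed level of 149, 125 and 155 TPM in the siNC libraries and 118, 119 and 122 TPM in the siCLAP libraries. Among fibroblast markers 5 of 7 tested estimates were negative and 0 passed, with a median of −0.45. The fibroblast sum did not go the same way, with means of 381 TPM in siNC and 397 TPM in siCLAP. The positive estimates were 0.09 for Dcn, most of that sum, and 0.67 for Lum, which was higher in siCLAP without overlap. None of these markers was at 0 in all libraries, and their part in the type VI values was not tested. The other type VI genes, Col6a4, Col6a5 and Col6a6, had means of 0.181, 0.223 and 0.0889 TPM, from at most 50.5 counts in a library. Col6a5 was among the genes called when no minimum was set (log2 fold change −0.99, edgeR adjusted p = 0.0443).

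**Figure D3:**
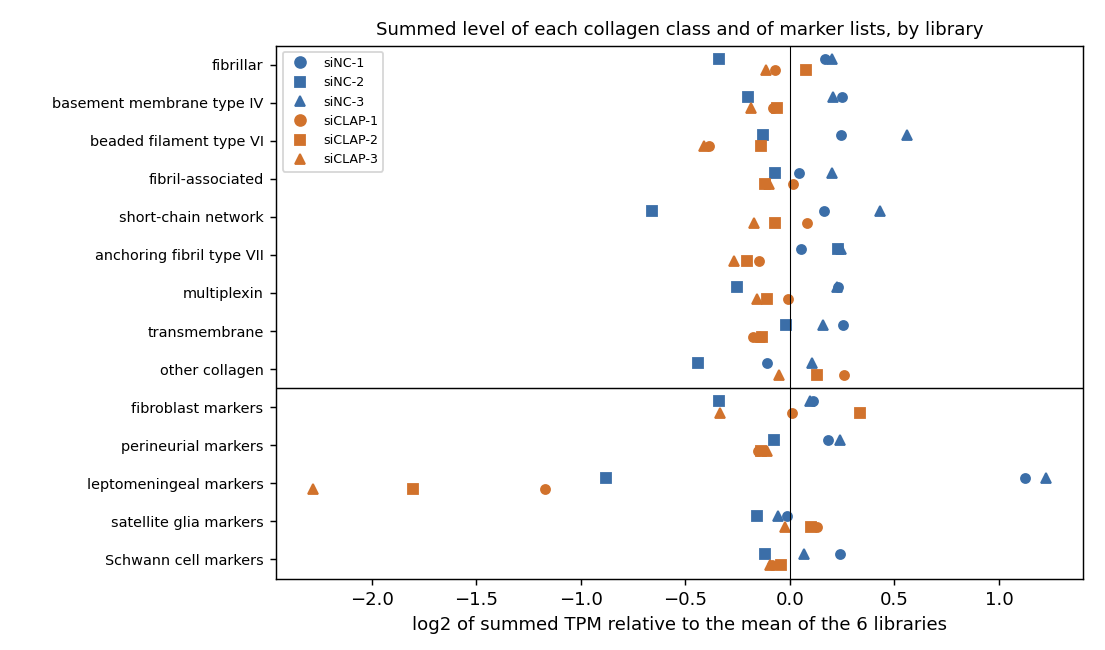
Summed TPM of each collagen class and of 5 marker lists in each library, as log2 relative to the mean of the 6 libraries, with siNC in blue, siCLAP in orange and the symbol giving the replicate number. The siNC-2 square lies left of the other control points in most collagen classes, and the leptomeningeal list has the widest spread of the rows shown.

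Type IV chains of basement membranes had 4 negative and 1 positive estimate among 5 tested genes, with a class median of −0.14, and none had an unadjusted p under 0.05. Col4a1 and Col4a2 form the network found in nearly all basement membranes. Col4a1 was at 47.6, 32.8 and 46.2 TPM in the siNC libraries and 35.7, 38.0 and 33.6 TPM in the siCLAP libraries. Col4a2 was at 33.4, 25.2 and 31.9 TPM in the siNC libraries and 28.1, 26.3 and 25.4 TPM in the siCLAP libraries. In both genes siNC-1 and siNC-3 lay above every siCLAP library and siNC-2 did not (−0.22 ± 0.11 and −0.16 ± 0.09, edgeR adjusted p = 0.344 and 0.384). Without siNC-2, Col4a1 fell by 0.36 on the log2 scale (edgeR adjusted p = 0.0313), and with 1 library left out its estimate ran from −0.36 to −0.12. The ratio of Col4a1 to Col4a2 TPM, the pair with overlapping starts, ran from 1.27 to 1.45.

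The chains of more specialised basement membranes, known from kidney and inner ear, were scarce. Col4a5 was at 1.18, 1.22 and 1.18 TPM in the siNC libraries and 1.21, 1.31 and 1.20 TPM in the siCLAP libraries, and its groups overlapped (0.07 ± 0.12, edgeR adjusted p = 0.828). Col4a3 and Col4a4 had overall means of 1.11 and 1.04 TPM, and Col4a6 of 0.115 TPM. The ratio of Col4a4 to Col4a3 ranged from 0.767 to 1.44, wider than that of Col4a1 to Col4a2, with 67.0 to 200.5 counts behind each value. The multiplexins, collagens of basement membrane zones whose tail gives endostatin or a like fragment, also had siNC-2 as their lowest control library. Col15a1 was at 21.7, 16.4 and 20.7 TPM in the siNC libraries and 17.8, 17.4 and 16.2 TPM in the siCLAP libraries (−0.17 ± 0.09, edgeR adjusted p = 0.356). Col18a1 was at 13.7, 8.91 and 14.6 TPM in the siNC libraries and 12.2, 10.5 and 10.9 TPM in the siCLAP libraries (−0.11 ± 0.14, edgeR adjusted p = 0.746). Groups overlapped in both.

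Among fibril-associated collagens, 6 of 7 tested estimates were negative, against 50.5% of all genes, and the class median was −0.20. Of the 7 genes 2 were lower at an unadjusted p under 0.05, beside 8.75% of all genes. The most abundant gene, Col16a1, a minor collagen of fibril surfaces, had overlapping groups. Col16a1 was at 44.5, 45.3 and 53.8 TPM in the siNC libraries and 48.6, 44.6 and 44.4 TPM in the siCLAP libraries (−0.04 ± 0.07, edgeR adjusted p = 0.815). Col20a1 had the lowest estimate of all 33 genes and lies at chr2:180986535-181018363. It stood at 3.08, 2.44 and 2.77 TPM in the siNC libraries and 1.65, 1.61 and 1.91 TPM in the siCLAP libraries. Every siCLAP value lay under every control value, with a log2 fold change of −0.66 ± 0.13 (edgeR adjusted p = 0.0679), from 68.0 to 182 counts per library. Without siCLAP-3 it passed (edgeR adjusted p = 0.0461), as it did in DESeq2 (DESeq2 adjusted p = 0.0314). As siCLAP-3 was the highest siCLAP library for Col20a1, the call without that library is no separate test of a fall. Col20a1 shares 79 exon bases with a transcript that overlaps it on the same strand.

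Col12a1, which sits on type I fibrils, was at 4.95, 3.13 and 4.98 TPM in the siNC libraries and 3.44, 2.82 and 2.87 TPM in the siCLAP libraries. The siNC-2 value lay among the siCLAP values (−0.48 ± 0.16, edgeR adjusted p = 0.166), and without siNC-2 Col12a1 fell by 0.67 on the log2 scale (edgeR adjusted p = 0.0234). Its estimate ran from −0.67 to −0.37 with 1 library left out. Col14a1, a related fibril-surface collagen, was at 6.64, 4.32 and 6.29 TPM in the siNC libraries and 5.50, 4.05 and 4.55 TPM in the siCLAP libraries (−0.25 ± 0.16, edgeR adjusted p = 0.440). Col9a2, a type IX chain best known from cartilage, was at 7.87, 6.40 and 6.92 TPM in the siNC libraries and 6.40, 6.40 and 6.56 TPM in the siCLAP libraries, with group overlap. Its partner Col9a3 had means of 2.103 ± 0.196 TPM and 1.80 ± 0.0837 TPM, while the third chain, Col9a1, had 0 counts in siNC-2, which allows up to 0.0648 CPM, and at most 7 counts elsewhere. Col19a1 was at 1.84, 1.97 and 2.04 TPM in the siNC libraries and 2.18, 2.07 and 2.05 TPM in the siCLAP libraries, slightly higher in siCLAP without overlap (0.13 ± 0.09, edgeR adjusted p = 0.518). Col22a1, known from tissue junctions, was under the minimum at 0.322 TPM.

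Col28a1 was the one collagen with a higher estimate at an unadjusted p under 0.05. It encodes a collagen with von Willebrand factor A domains that is known chiefly from peripheral nerve and DRG. The gene lies at chr6:7997808-8192617, and its levels were 55.2, 43.5 and 65.6 TPM in the siNC libraries and 72.8, 65.2 and 58.6 TPM in the siCLAP libraries. The highest control value, in siNC-3, exceeded those of siCLAP-2 and siCLAP-3, so the groups overlapped (0.29 ± 0.12, edgeR adjusted p = 0.262). Without a minimum TPM Col28a1 was called higher (edgeR adjusted p = 0.0302). It was not called with a minimum of 0.1 TPM (edgeR adjusted p = 0.238) or in DESeq2 (DESeq2 adjusted p = 0.477). The estimate was 0.15 without siNC-2 and 0.43 without siNC-3. Satellite glia markers, from the cells that wrap neuron bodies, also had higher estimates in siCLAP, with 6 of 6 positive. Of them 1 passed the test (Ednrb, edgeR adjusted p = 0.0317). Their summed level was 4081, 3692 and 3953 TPM in the siNC libraries and 4498, 4411 and 4048 TPM in the siCLAP libraries. Most of this sum was Apoe, with means of 3426 TPM in siNC and 3750 TPM in siCLAP and overlapping groups (edgeR adjusted p = 0.213). Of the 6 genes 3 were higher in siCLAP without overlap, beside 10.9% of all genes. The part of these markers in Col28a1 was not tested. Col26a1, placed beside it as a collagen outside the main classes, was at 3.81, 3.34 and 2.92 TPM in the siNC libraries and 3.41, 4.39 and 2.78 TPM in the siCLAP libraries (0.07 ± 0.17, edgeR adjusted p = 0.863).

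Transmembrane collagens are made as proteins anchored in the cell membrane. Col23a1 (chr11:51289920-51583918) was at 21.2, 16.6 and 19.2 TPM in the siNC libraries and 15.01, 15.36 and 15.18 TPM in the siCLAP libraries. The siCLAP libraries lay within a narrow band under all controls (−0.30 ± 0.08, edgeR adjusted p = 0.0950), and Col23a1 was called lower without siNC-2 (edgeR adjusted p = 0.0326) and by DESeq2 (DESeq2 adjusted p = 0.0171). With 1 library left out its estimate ran from −0.39 to −0.22. Col25a1, needed for motor axons to enter muscle, was at 3.20, 3.49 and 3.45 TPM in the siNC libraries and 2.79, 3.21 and 2.99 TPM in the siCLAP libraries, with overlap (−0.16 ± 0.10, edgeR adjusted p = 0.412). Col13a1, a collagen of the neuromuscular junction, was at 0.590, 0.623 and 0.797 TPM in the siNC libraries and 0.691, 0.487 and 0.754 TPM in the siCLAP libraries, under the minimum. Col17a1, a collagen of the skin's hemidesmosomes, had at most 7 counts in a library.

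Col7a1 (chr9:108953586-108984875), the anchoring fibril collagen best known from skin, shares 36 exon bases with the miRNA gene Mir711 annotated within it. Col7a1 was at 3.71, 4.19 and 4.22 TPM in the siNC libraries and 3.23, 3.10 and 2.97 TPM in the siCLAP libraries. Here siNC-2 did not stand apart from the other controls, and the groups did not overlap (−0.37 ± 0.09, edgeR adjusted p = 0.0856; DESeq2 adjusted p = 0.0370). The short-chain network collagens include Col8a1, a collagen of vessel walls, at 4.60, 2.45 and 6.33 TPM in the siNC libraries and 5.09, 4.35 and 3.92 TPM in the siCLAP libraries. Its estimate of 0.07 ± 0.26 had overlapping groups and moved with single libraries, to −0.25 without siNC-2, −0.05 without siCLAP-1 and 0.38 without siNC-3. Its partner Col8a2 was just under the minimum, at 1.31, 0.793 and 1.38 TPM in the siNC libraries and 0.735, 0.871 and 0.745 TPM in the siCLAP libraries. Col10a1, the collagen of hypertrophic cartilage, was at 0.752, 0.531 and 0.327 TPM in the siNC libraries and 0.487, 0.444 and 0.621 TPM in the siCLAP libraries. At the minimum itself, Col4a4 was the nearest gene inside with a mean of 1.04 TPM and Col8a2 the nearest outside with 0.972 TPM.

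**Figure D4:**
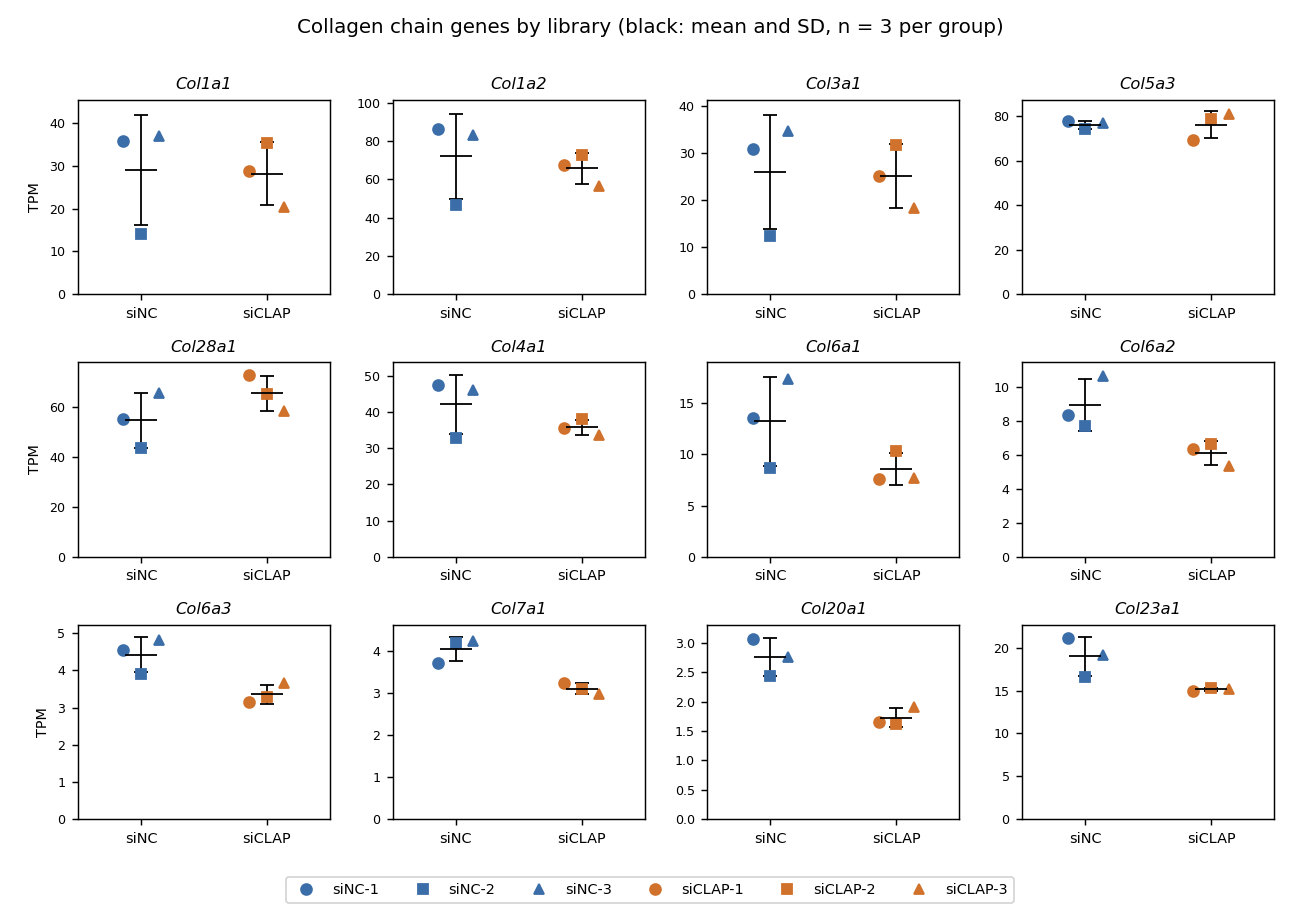
TPM of 12 collagen chain genes in each library, with siNC in blue, siCLAP in orange and the group mean with its SD in black (n = 3), each panel starting at 0. In the Col1a1 and Col3a1 panels the siNC-2 square is the lowest point, while in the Col7a1 and Col20a1 panels all siCLAP points lie below all siNC points.

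Spread between control libraries was a feature of many collagens. On normalised counts the median coefficient of variation of the 33 genes was 12.9% in siNC and 7.87% in siCLAP, beside 6.80% and 7.0% over all tested genes. The siNC-2 library was the lowest of its group for 23 of 33 collagens and for 32.6% of all genes. It was the most deeply sequenced library, with 46317735 counts. Schwann cell markers, of which 1 of 10 fell (Egr2, edgeR adjusted p = 0.0389), were also lowest there, with a summed level of 5370.5, 4193 and 4766 TPM in the siNC libraries and 4292, 4427 and 4268 TPM in the siCLAP libraries. The part of marker levels and of depth in the collagen pattern was not tested.

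Genes that make, process, bind or degrade collagen were read from the same fit, as 5 lists with 63 tested genes of 68. None passed edgeR's test, and at an unadjusted p under 0.05 16 were lower and 0 higher, beside 8.75% and 8.22% of all genes. DESeq2 called 4 of them lower (P4ha2, P4ha1, Lox and Itga11), beside 2.68% of its genes. The median log2 fold change over the 63 genes was −0.07. Among modifying enzymes and chaperones 0 of 19 passed. P4ha2 and P4ha1, catalytic subunits of the prolyl 4-hydroxylase that stabilises the triple helix, stood at −0.42 ± 0.08 and −0.32 ± 0.09 (edgeR adjusted p = 0.0584 and 0.122). P4ha2 was at 18.5, 18.8 and 18.6 TPM in the siNC libraries and 15.3, 13.4 and 12.6 TPM in the siCLAP libraries, with no overlap. Serpinh1, the collagen chaperone HSP47, was highest in siNC-3, at 48.6, 46.4 and 79.6 TPM in the siNC libraries and 49.3, 40.1 and 41.3 TPM in the siCLAP libraries. P4ha2 passed in edgeR with a minimum of 0.1 or 5 TPM in place of 1 (edgeR adjusted p = 0.0452 and 0.0487).

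Of processing and cross-linking enzymes 0 of 11 tested passed. Lox, the oxidase that cross-links collagen and elastin, was at 12.1, 10.4 and 12.5 TPM in the siNC libraries and 8.06, 9.34 and 8.63 TPM in the siCLAP libraries, without overlap (−0.41 ± 0.08, edgeR adjusted p = 0.0680). Pcolce2, an enhancer of procollagen cleavage, stood at 0.15 ± 0.07 (edgeR adjusted p = 0.317). Among 10 collagen receptors Itga11, the integrin subunit that binds fibrillar collagen, was at 3.66, 3.15 and 3.81 TPM in the siNC libraries and 1.86, 1.38 and 2.98 TPM in the siCLAP libraries, without overlap (−0.74 ± 0.22, edgeR adjusted p = 0.131). Without siCLAP-3 it fell by 1.08 on the log2 scale (edgeR adjusted p = 0.0199). As siCLAP-3 was the highest siCLAP library for Itga11, leaving that library out lowers the siCLAP level and is no separate test of a fall. Adgrg1, a receptor for type III collagen, stood at −0.10 ± 0.04 (edgeR adjusted p = 0.270). In the list of degrading enzymes and inhibitors, with 9 tested of 13, Mmp15, a membrane-bound protease, stood at −0.21 ± 0.07 and Mrc2, an uptake receptor for collagen fragments, at −0.48 ± 0.20 (edgeR adjusted p = 0.172 and 0.264). Among 14 basement membrane partners of type IV collagen, 12 estimates were negative, led by the laminin chains Lamb2 at −0.30 ± 0.11 and Lama5 at −0.31 ± 0.12 (edgeR adjusted p = 0.210 and 0.235). Without siNC-2 Lamb2 passed, as did Lox and the perlecan gene Hspg2 (edgeR adjusted p = 0.0153, 0.0339 and 0.0326). For each of these genes siNC-2 was the lowest control library.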

How the data were processed

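Bulk RNA-seq libraries of 3 siNC and 3 siCLAP samples were analysed. Library preparation used a NEBNext Ultra kit, per the labels' protocols. The tools HISAT2 2.1.0, featureCounts 1.6.2 and FastQC 0.11.8, with the build mm10, are named in the submitters' processing notes. Each deposited file lists 48401 genes with a TPM value and a further value that no header names, taken here as an expected count. Of these further values 66.5% were whole within 1e-06, with zeros counted as whole. In each library 26004 to 27505 of the 48401 genes were above 0. For the 35 collagens with at least 30 counts, TPM was the count divided by a gene constant and a library constant. Annotation, strand setting and multimapping rule were not given in the sources used here.

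Rounded expected counts entered the quasi-likelihood test of edgeR 4.0.16 in R 4.3.3, with TMM scaling and no covariate. The 19141 genes at or above a mean of 1 TPM were tested, with Benjamini-Hochberg adjustment over all of them at 0.05. A standard error is the absolute log2 fold change over the root of F. The precision is limited by 3 libraries per group (common biological coefficient of variation 6.78%), and an exact permutation test of 1 gene cannot go below 0.1. In simulated counts of 19141 genes, 54%, 76%, 98% and 100% of genes changed by 1.25, 1.5, 2 and 3-fold were recovered (50 each, drawn from genes above 2 CPM). These genes were drawn from all genes at random, not from the collagens. Collagens varied more in siNC, with a median coefficient of variation of 12.9% against 6.80% over all tested genes. The shares are therefore not recovery rates for collagens. A floor of 3 counts corresponds to 0.0648 to 0.140 CPM and covers counting error only.

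The gene lists, classes and members were chosen with earlier results of these data known. The naming rule gave levels for every tested collagen, values in every library for the 3 most abundant of each class and the 6 highest and 6 lowest estimates, and of each pathway list the 2 smallest p; Col3a1, Col7a1, Serpinh1, Hspg2 and the genes under the minimum were added after their values were seen. Alternatives were RLE size factors, library totals, other TPM minimums, DESeq2 1.42.0, limma 3.58.1 (voom, and log2(TPM + 0.5), + 0.1 or + 1), the replicate number as a block, and libraries left out. Libraries of a group differed by more than counting noise (mean chi-square per gene 4.36 to 10.0). Positions came from GENCODE M21 (44 of 44 matched) and promoters from RefSeq, both on GRCm38, the assembly of mm10.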

Additional observations from a re-analysis of the deposited data

How the results depend on the processing

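In all, 18 alternatives to the analysis were run. Over all genes 56 changed in edgeR, and the count was 835 with no minimum TPM, 135 and 118 with minimums of 0.1 and 5 TPM, 611 in DESeq2, and 0 in limma on log2 TPM with pseudocounts of 0.5, 0.1 and 1 (3028, 3017 and 3040 genes at an unadjusted p under 0.05). Leaving out siNC-3 and siCLAP-2 together, a pair chosen from earlier results, gave 13 genes, and leaving out 1 library gave 0 (siCLAP-1, 1960 at an unadjusted p under 0.05) to 340 (siCLAP-3). For the collagens the count of 0 became 10 with no minimum and 6 in DESeq2, and 0 to 5 when 1 library was left out. For the pathway lists 0 became 8 with no minimum, 1 at 0.1 TPM, 1 at 5 TPM and 4 in DESeq2, and 0 to 3 with 1 library out. Over all genes, 2.75%, 0.521%, 0.854% and 4.38% were called in these 4 settings. The collagen median of −0.12 ranged from −0.27 to −0.069 with 1 library out. The cause of these shifts was not tested, apart from the change in genes or samples that each setting makes.

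With the replicate number as a replicate block, edgeR called 203 genes and 0 collagens. Same-numbered libraries deviated together with correlations of 0.066, 0.0077 and −0.044, so the numbers were not taken as pairs.

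Of 578 values of single collagens under the alternatives, 515 kept their direction and side of the threshold, 21 in 10 genes passed it and 42 in 11 genes changed sign. Col1a1 (−0.0015) became 0.0025 with library totals, 0.0037 at 0.1 TPM, 0.12 in limma voom, 0.047, 0.049 and 0.044 in limma with pseudocounts of 0.5, 0.1 and 1, 0.057 with the block and 0.019 without siNC-3 and siCLAP-2. Col3a1 (−0.0068) became 0.14, 0.047, 0.050, 0.044, 0.057 and 0.049 in these settings from voom on. Col5a3 (0.015) became −0.0034, −0.0034 and −0.0033 in limma and −0.0032 without that pair, where Col16a1 became 0.065, Col18a1 0.059, Col26a1 −0.18 and Col5a2 0.015. With 1 library out, the ranges that crossed 0 were −0.15 to 0.014 for Col11a2, −0.092 to 0.044 for Col16a1, −0.30 to 0.016 for Col18a1, −0.34 to 0.20 for Col1a1, −0.34 to 0.046 for Col1a2, −0.10 to 0.21 for Col26a1, −0.36 to 0.25 for Col3a1, −0.23 to 0.11 for Col4a3, −0.28 to 0.0064 for Col5a2, −0.029 to 0.074 for Col5a3 and −0.25 to 0.38 for Col8a1. The cause was not tested.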
